A study of Mus musculus with 22 samples.

Results

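Rods and cones purified from the mouse retina at postnatal day 7 (P7) were compared across all genes of the deposited expression table. The comparison rests on 2 rod libraries and 2 cone libraries, 4 of the 22 libraries in the series. The other libraries described below are 2 of ON-bipolar cells at P7, the interneurons that photoreceptors contact. They also include 2 each of rods and of cones at P13 and at P30. All cells came from retina by sorting, and their RNA was amplified linearly before sequencing. The labels state the age, tissue and cell type; they name no strain, genotype, sex, reporter or sorting gate, and do not say whether replicates came from separate animals. The test fitted all 22 libraries in 11 groups at once. Its p-values therefore use the spread between libraries of the same group over the whole series, not that of the P7 libraries alone. Since replicates may not be separate animals, that spread may be technical. A gene can also miss a call through spread in other groups. Of the 13812 genes in the table, 13785 matched a gene symbol, and 13405 of those had at least 1 CPM (a read count scaled for depth) in both libraries of at least 1 group and were tested.

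Rods and cones arise from a common photoreceptor precursor. The homeodomain factors Otx2 and Crx act in both, the leucine zipper factor Nrl and its target Nr2e3 direct the rod programme and hold back cone genes, and thyroid hormone receptor beta acts in cones. At P7 the mouse eye is still closed, outer segments are beginning to form, and the synapses of the outer retina are being built. Beyond the light response itself, the cells differ in their nuclei, terminals, surface proteins and metabolism.

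The labels fitted their defining markers. Nrl, which sets rod fate, had 914 and 1196 CPM in rods, against 60.0 and 34.0 CPM in cones. Nr2e3, the nuclear receptor that acts with Nrl, had 3162 and 3547 CPM in rods, against 144 and 77.6 CPM in cones. Gnat2, the cone transducin subunit, had 1 read in the first rod library and none in the second, against 1949.7 and 2144 CPM in cones. Opn1sw, the short-wavelength cone opsin, had 1.02 and 7.45 CPM in rods, against 3748 and 3944 CPM in cones. All 4 markers separated the groups without overlap.

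The groups differed in more than single genes. The 4 libraries held 40.8 to 50.8 M reads, but 11469 and 12021 genes had a read in rods, against 13438 and 13136 in cones. RNA from the mitochondrial genome made up 2.83% and 2.55% of reads in rods, against 6.14% and 4.61% in cones. Rod libraries held next to no RNA of most cone markers: 7 of 10, among them Gnat2, Arr3 and Pde6h, stood at no more than 0.194% of their cone mean. The other 3 were Thrb at 11.3% and 15.1%, Gngt2 at 23.3% and 19.3%, and Rxrg at 27.5% and 53.4%. Cone libraries held some rod RNA: 8 of 9 rod marker genes stood at 2.79% to 12.2% of their rod mean in cone replicate 1 and at 1.64% to 12.6% in cone replicate 2. The exception was Pde6g, the inhibitory gamma subunit of the rod phosphodiesterase, at 63.7% and 76.3%. Over the 28 genes of the bipolar list the median level was 0.101% and 0.627% of the bipolar mean in rod replicates 1 and 2, against 11.1% and 1.999% in cone replicates 1 and 2. Single genes of the list reached 97.3% in rods. In cones, 25 of the 28 were higher in replicate 1 than in replicate 2, and 4, Cabp5, Lrtm1 and Rgs7 among them, stood above the bipolar mean in both. Of the markers that define ON-bipolar cells, Grm6 stood at 2.89% and 0.169%, Trpm1 at 11.1% and 0.414% and Isl1 at 4.24% and 0.174% in cone replicates 1 and 2. Summed over 15 microglia markers, rod replicate 2 held 47.7 CPM and rod replicate 1 4.09 CPM, against 13.6 and 6.90 CPM in cones. Red blood cell genes summed to 3.51 and 0.132 CPM in rods, against 114 and 5.21 CPM in cones. In sorted bulk samples, fewer cells of a type and less RNA per cell cannot be told apart. How much these other cells contributed to the differences below was not tested.

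**Figure D1:**
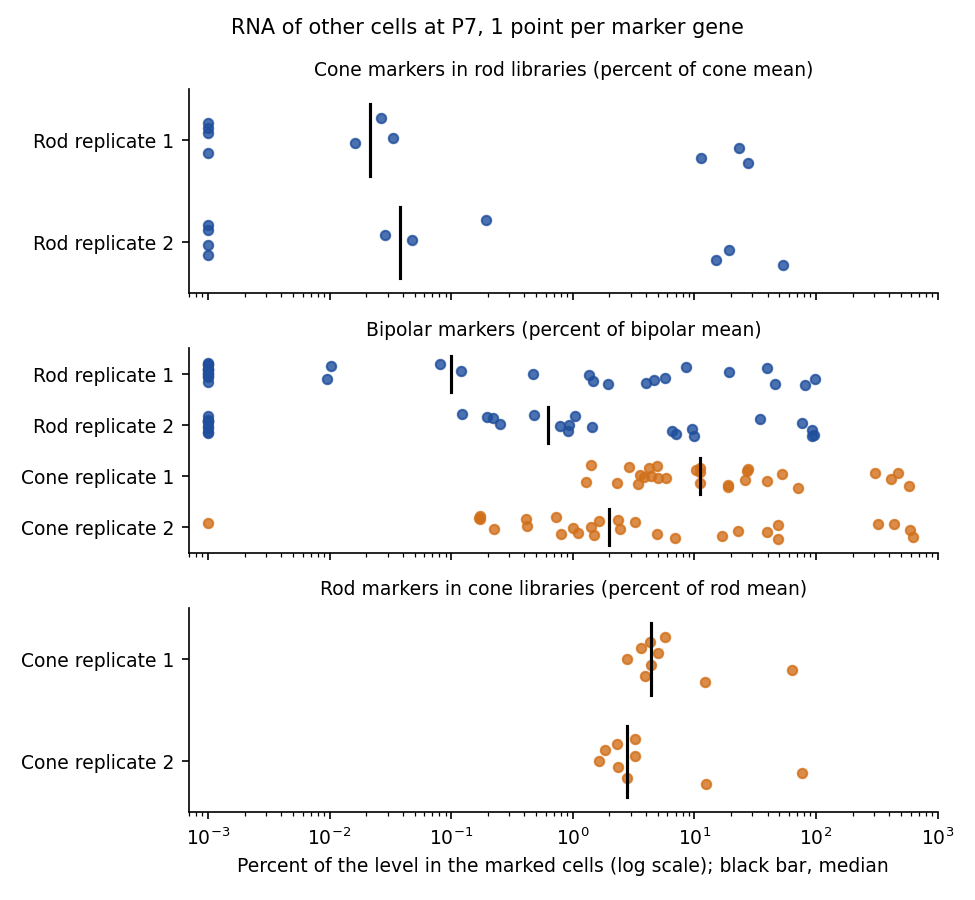
RNA of other cells in the 4 photoreceptor libraries at P7. The x axis gives each marker gene's CPM as a percent of its mean in the cells it marks (log scale; values under 0.001% are drawn at 0.001%), with rod libraries above cone libraries. Black bars give medians. Gngt2, Thrb and Rxrg are the 3 cone markers on the right in rods. All 9 rod, 10 cone and 28 bipolar markers measured are drawn. In cones 8 rod markers lie between 1.64% and 12.6% and Pde6g lies at 63.7% and 76.3%, and 25 of 28 bipolar markers are higher in cone replicate 1 than in cone replicate 2.

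Across the 13405 genes tested, 442 were higher in rods and 1276 were lower (limma on log2 CPM, Benjamini-Hochberg adjusted p below 0.05, with a log2 fold change of 1 or more), which is 3.30% and 9.52% of all genes tested. The rod and cone libraries of every called gene were free of overlap. The criteria for a call favour such genes, so this is not separate support for the calls. Genes higher in rods were mostly well expressed, with a median level of 144 CPM in rods, and 430 of the 442 averaged at least 8 CPM there. Those lower in rods had a median level of 14.4 CPM in cones. Of the 1276, 436 had no read in either rod library, against 3 of the 442 with none in either cone library. Over all 13405 genes tested, 1183 had no read in either rod library and 147 had none in either cone library. Rod replicates agreed less well over all genes (r = 0.894 across genes) than cone replicates (r = 0.951). With cone replicate 1 left out, 255 genes were higher and 668 lower, of which 244 and 632 were among those called with all libraries. Without cone replicate 2 the counts were 319 and 719, and without rod replicate 1 they were 292 and 941; in a fit to rod and cone libraries only they were 316 and 687. The median log2 fold change over all genes tested was -0.16. In the gene lists below that had no member called higher by limma, at most 1 member passed an unadjusted p below 0.05 with the same fold, and at most 1 was called with voom weights. In those with none called lower, 0 did by either measure. The lists hold genes of known function, and each count is to be read against 3.30% higher and 9.52% lower. A range in brackets after a count gives the lowest and highest count when each of the 4 libraries at P7 was left out in turn, to be read against 1.90% to 3.02% of all genes higher and 4.98% to 9.09% lower. The lowest count came without cone replicate 1, alone or tied with another library, unless another library is named.

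**Figure D2:**
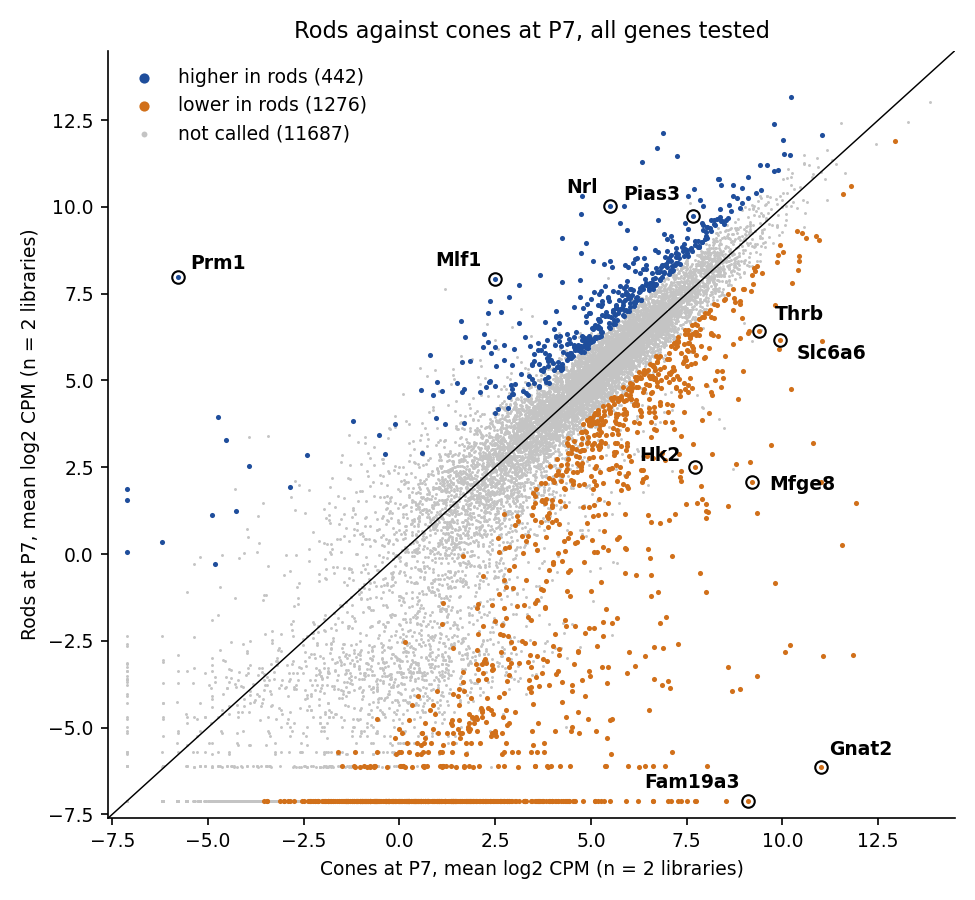
Mean deposited log2 CPM in rods (y axis) against cones (x axis) at P7, 1 point per gene for the 13405 genes tested. Genes called higher in rods (442) and lower in rods (1276) are coloured, and the row of points at the bottom holds genes without reads in rods.

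Among regulators of rod fate, 5 of 9 genes were higher in rods (3 to 4) and 1 was lower. Beside Nrl and Nr2e3, with log2 fold changes of 4.53 ± 0.40 (± gives the SE here and below; adjusted p = 1.5e-06) and 4.99 ± 0.54 (adjusted p = 1.2e-05), the SUMO ligase Pias3 had 845 and 858 CPM in rods, against 203 and 204 CPM in cones. Pias3 works with both factors in mouse rods, and its difference was 2.06 ± 0.25 (adjusted p = 3.7e-05). Esrrb, an orphan nuclear receptor needed for rod survival in mouse, had 34.9 and 16.6 CPM in rods, against 2.80 and 1.21 CPM in cones, a difference of 3.71 ± 1.05 (adjusted p = 0.025). Samd11, a partner of Polycomb proteins in photoreceptors, had 128 and 226 CPM in rods, against 13.4 and 3.98 CPM in cones (adjusted p = 0.032). Esrrb lost its call when rod replicate 1, cone replicate 1 or cone replicate 2 was left out (log2 difference 3.10, adjusted p = 0.17 without cone replicate 2). Samd11 lost its call when rod replicate 1, rod replicate 2, cone replicate 1 or cone replicate 2 was left out (log2 difference 3.67, adjusted p = 0.21 without cone replicate 2). Samd7, its relative, had 1167 and 1049.6 CPM in rods, against 211 and 175 CPM in cones, which did not overlap, but the adjusted p was 0.33. The zinc finger factor Casz1 had 358 and 464 CPM in rods, against 305 and 199.6 CPM in cones (adjusted p = 0.26), and the clock repressor Nr1d1 overlapped between the groups, with 9.47 and 4.23 CPM in rods, against 12.1 and 7.93 CPM in cones. The exception was Mef2c, a MADS-box transcription factor, which was lower in rods. Mef2c had 0.221 and 4.98 CPM in rods, against 33.3 and 11.9 CPM in cones (adjusted p = 0.0098), so that the rod libraries differed widely from each other, and the microglia markers were higher in the same rod library; their part in the result was not tested. Mef2c lost its call when rod replicate 1 or cone replicate 1 was left out (log2 difference -1.998, adjusted p = 0.13 without rod replicate 1). At P30 the order of the groups was the other way round, with 346 and 349.7 CPM in rods, against 5.61 and 15.3 CPM in cones.

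Of 9 regulators of cone fate that were measured, 4 were lower in rods (2 to 3) and 1 was higher. Sall3, a zinc finger factor that promotes cone opsin expression in mouse, had no reads in rods, against 164 and 201 CPM in cones, so that it was at least 5812-fold lower in rods when set against a floor of 3 reads over both rod libraries (adjusted p = 3.8e-06). Lhx4, a LIM homeodomain factor of cones and bipolar cells, had 0 and 0.723 CPM in rods, against 136 and 97.0 CPM in cones (adjusted p = 8.4e-05), and 216 CPM in bipolar cells. Thrb, the thyroid hormone receptor that directs cone subtype, was not absent from rods. It had 75.0 and 100.2 CPM in rods, against 682 and 647 CPM in cones, a log2 difference of -2.94 ± 0.76 (adjusted p = 0.016). Its partner Rxrg had 27.0 and 52.5 CPM in rods, against 95.4 and 100.9 CPM in cones, and at P7 the difference did not pass the test (-1.38 ± 1.69, adjusted p = 0.67), whereas at P13 it had 0 and 0.0252 CPM in rods, against 129 and 91.3 CPM in cones. The difference at P7 minus that at P13 was 11.41 ± 2.38, adjusted p = 0.025, a size that depends on the prior, since rods at P13 had 1 read in all. Pou2f2, a POU-domain factor, had 0.341 and 0.373 CPM in rods, against 7.57 and 3.82 CPM in cones (adjusted p = 0.019). Its relative Pou2f1 had 77.4 and 69.5 CPM in rods, against 149.7 and 142 CPM in cones, with a difference of -0.99 ± 0.21 that fell just short of the fold required. Nr2f2, a COUP-family nuclear receptor, went the other way, with 34.98 and 25.6 CPM in rods, against 14.98 and 4.40 CPM in cones (adjusted p = 0.023). Nr2f1 had 1.26 and 4.93 CPM in rods, against 9.97 and 8.35 CPM in cones, and Onecut2 had 0.963 and 7.32 CPM in rods, against 26.7 and 10.9 CPM in cones; neither passed the test (adjusted p = 0.54 and 0.51). Thrb lost its call when rod replicate 1, cone replicate 1 or cone replicate 2 was left out (log2 difference -2.73, adjusted p = 0.097 without rod replicate 1). Pou2f2 lost its call when rod replicate 1, rod replicate 2, cone replicate 1 or cone replicate 2 was left out (log2 difference -3.40, adjusted p = 0.15 without cone replicate 1). Nr2f2 lost its call when rod replicate 1 or cone replicate 2 was left out (log2 difference 1.00, adjusted p = 0.28 without cone replicate 2). The call of Lhx4 ended in a fit to the 4 libraries alone.

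Of 8 regulators that both photoreceptors use, 2 were higher in rods and none lower. Otx2, which turns on the photoreceptor programme, had 2167 and 2066 CPM in rods, against 879.6 and 879 CPM in cones, a log2 difference of 1.27 ± 0.15 (adjusted p = 2.5e-05). It also had 2228 CPM in bipolar cells, which use it too. Rorb, a nuclear receptor needed for rod fate in mouse, had 1046 and 936 CPM in rods, against 383 and 288 CPM in cones, a difference of 1.57 ± 0.21 (adjusted p = 8.7e-05). Crx, Otx2's target, had 2904 and 2575 CPM in rods, against 1815 and 2055 CPM in cones, and Neurod1, a basic helix-loop-helix factor, had 3311 and 2530.2 CPM in rods, against 1273 and 1812 CPM in cones. Both were below a log2 difference of 1 (0.50 ± 0.14 and 0.93 ± 0.19), although the libraries did not overlap and the adjusted p was 0.022 and 0.0041. Rora had 389 and 371 CPM in rods, against 617 and 503 CPM in cones, Mef2d 48.2 and 51.4 CPM in rods, against 104 and 84.0 CPM in cones, and Prdm1, which keeps precursors from becoming bipolar cells, 367 and 310.0 CPM in rods, against 168 and 196 CPM in cones. None of the 3 passed the test (adjusted p = 0.19, 0.053 and 0.74). Rax overlapped between the groups, with 126 and 176 CPM in rods, against 171 and 157 CPM in cones.

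**Figure D3:**
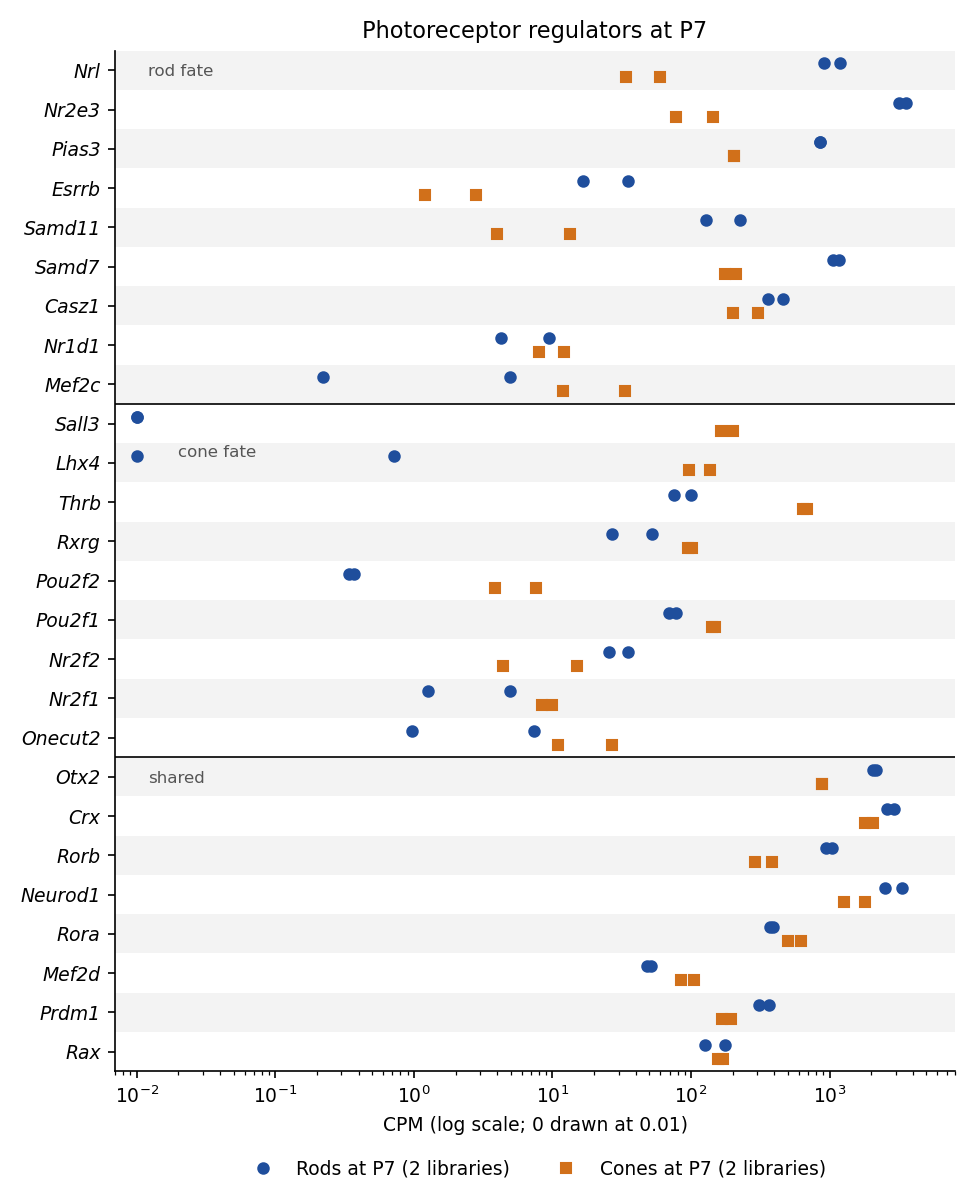
Levels of photoreceptor regulators at P7 in each library (CPM, log scale; a value of 0 is drawn at the left edge), with rod libraries drawn above cone libraries for each gene. Sall3 and Lhx4 lie at or near 0 in rods, Thrb and Rxrg are present in both, and Crx and Rax lie close together.

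The promoters of the called genes were searched for sites of the regulators just described. TAATCC, and GGATTA on the other strand, is the letter string of the Otx and Crx homeodomain site. It was found in 7.71% of 441 windows around the starts of genes higher in rods (346 of 442 genes had a window) and in 6.84% of 1330 windows of genes lower in rods (955 of 1276). Over all 32851 windows of the same length the share was 7.06%, and over the 13390 windows of genes tested 5.93%. TGCTGA, the core of the Maf-type site that Nrl binds (TCAGCA on the other strand), was in 13.6% of windows of genes higher in rods and 17.4% of those of genes lower in rods, against 19.5% of all windows and 15.6% of the windows of genes tested. Windows can belong to alternative starts of 1 gene, and 6 windows of genes higher in rods and 18 of those lower in rods held both motifs. A match describes letters and is not evidence of binding. The windows printed here are those of 2 rod genes, Cngb1 and Mlf1, of the rod regulator Nr2e3 and of the cone genes Gnat2 and Thrb, from 250 bases before the start to 50 after it (RefSeq, GRCm38.p6, 5′ to 3′ on the gene's strand), with TAATCC or GGATTA in capitals. They lie at chr9:59950030-59950329 for Nr2e3 (minus strand), chr8:95306536-95306835 for Cngb1 (minus strand), chr3:67373847-67374146 for Mlf1 (plus strand), chr3:108092816-108093115 for Gnat2 (plus strand) and chr14:17660710-17661009 for Thrb (plus strand). Nr2e3 has no match in this window, Cngb1 has 2, and the others have 1 each. Thrb has another start, whose window holds no match.
Nr2e3: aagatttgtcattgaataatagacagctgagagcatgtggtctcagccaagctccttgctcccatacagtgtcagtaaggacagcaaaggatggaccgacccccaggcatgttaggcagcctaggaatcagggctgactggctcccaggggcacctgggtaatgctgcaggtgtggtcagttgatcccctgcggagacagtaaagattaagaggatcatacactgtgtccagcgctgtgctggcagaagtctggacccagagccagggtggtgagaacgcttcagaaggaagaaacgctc
Cngb1: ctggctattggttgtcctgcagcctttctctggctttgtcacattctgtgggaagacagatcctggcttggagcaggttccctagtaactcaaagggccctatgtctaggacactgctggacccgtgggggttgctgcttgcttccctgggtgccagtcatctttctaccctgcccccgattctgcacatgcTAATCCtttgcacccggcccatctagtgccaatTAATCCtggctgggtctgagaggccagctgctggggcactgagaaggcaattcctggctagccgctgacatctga
Mlf1: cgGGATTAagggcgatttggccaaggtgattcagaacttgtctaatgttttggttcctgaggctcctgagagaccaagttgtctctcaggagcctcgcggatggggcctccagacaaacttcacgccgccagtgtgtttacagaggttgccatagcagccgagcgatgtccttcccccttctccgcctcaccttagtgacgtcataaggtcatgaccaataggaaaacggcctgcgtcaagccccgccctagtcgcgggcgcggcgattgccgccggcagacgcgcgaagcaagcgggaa
Gnat2: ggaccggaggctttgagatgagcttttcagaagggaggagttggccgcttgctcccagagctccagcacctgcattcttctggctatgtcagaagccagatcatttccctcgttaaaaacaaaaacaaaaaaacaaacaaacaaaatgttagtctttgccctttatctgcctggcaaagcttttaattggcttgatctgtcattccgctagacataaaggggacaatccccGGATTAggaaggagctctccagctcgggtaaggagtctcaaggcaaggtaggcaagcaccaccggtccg
Thrb: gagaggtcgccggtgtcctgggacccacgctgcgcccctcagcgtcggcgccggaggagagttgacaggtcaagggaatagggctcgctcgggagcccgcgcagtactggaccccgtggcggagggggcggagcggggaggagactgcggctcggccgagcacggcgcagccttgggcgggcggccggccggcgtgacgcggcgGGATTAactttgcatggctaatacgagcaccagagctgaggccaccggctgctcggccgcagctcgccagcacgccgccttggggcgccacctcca

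Among genes whose mean reached 8 CPM, the largest rise in rods was that of Prm1, a protamine that compacts DNA in sperm. Prm1 (chromosome 16, 10796326 to 10805839 of GRCm38, protein-coding) had 242 and 259 CPM in rods, against 2 reads in cone replicate 1 and none in replicate 2, a ratio of 13677 to 1 (95% counting interval 3786 to 112937), adjusted p = 2.2e-06. It was present in rods at every age and nearly absent elsewhere, with 387 and 618 CPM in rods at P13 and 635 and 755 CPM at P30. Mlf1, myeloid leukaemia factor 1, had 302 and 198 CPM in rods, against 5.72 and 5.46 CPM in cones, a log2 difference of 5.45 ± 0.76 (adjusted p = 1.4e-04). Lrp4, the agrin receptor of nerve-muscle synapses, had 584 and 519.6 CPM in rods, against 30.7 and 11.7 CPM in cones (4.86 ± 0.56, adjusted p = 2.3e-05). Plpp2, a phospholipid phosphatase, had 258 and 182 CPM in rods, against 9.84 and 7.68 CPM in cones (4.64 ± 0.48, adjusted p = 7.6e-06). These genes were low in bipolar cells as well, at 3.90 CPM, 21.2 CPM and 15.8 CPM. Nt5e, the surface nucleotidase also known as CD73, had 149.8 and 160.3 CPM in rods, against 6.06 and 4.33 CPM in cones (adjusted p = 0.012), and the integrin subunit Itga3 had 46.5 and 61.5 CPM in rods, against 2.74 and 1.08 CPM in cones (adjusted p = 0.0077). Itga3 lost its call when cone replicate 2 was left out (log2 difference 4.28, adjusted p = 0.082). Nt5e lost its call when rod replicate 1, rod replicate 2, cone replicate 1 or cone replicate 2 was left out (log2 difference 4.68, adjusted p = 0.079 without cone replicate 2). The noncoding Gm11110 had 14.2 and 14.3 CPM in rods, against 0.261 and 0.685 CPM in cones, and no reads in either group at P13. Gm11110 lost its call when rod replicate 1, rod replicate 2 or cone replicate 1 was left out (log2 difference 4.36, adjusted p = 0.14 without cone replicate 1). The cone level of Mlf1 was 2.24% of the rod level, within the range of the rod markers.

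Several of the genes lowest in rods lie outside the cascade and had no reads in rods. Fam19a3, a secreted chemokine-like protein (chromosome 3, 104767406 to 104781840), had no reads in rods, against 472 and 637 CPM in cones, and was at least 17649.5-fold lower in rods (adjusted p = 6.8e-12). Adrb1, the beta-1 adrenergic receptor (chromosome 19, 56722199 to 56733113), had no reads in rods, against 344 and 394 CPM in cones (at least 11742-fold lower, adjusted p = 9.4e-08). Both cone libraries were high for each of the pair. Fzd10, a Wnt receptor, was at least 5284-fold lower in rods, with 139 and 193 CPM in cones. Rab27b, a small GTPase of vesicle release, was at least 4558-fold lower, and Rgs7, which speeds the shut-off of G proteins, at least 4187-fold lower. Clca1, a regulator of chloride channels, was at least 3153-fold lower, and Gpat3, a glycerophosphate acyltransferase, at least 3117-fold lower. Each of these 5 had no reads in either rod library (adjusted p = 1.4e-04, 5.1e-05, 1.0e-06, 1.0e-04 and 8.4e-06). In bipolar cells Fzd10 had 0.0283 CPM and Gpat3 0.234 CPM, whereas Fam19a3 had 73.7 CPM and Rgs7 26.0 CPM. Kcne2, an accessory potassium channel subunit known from cones, had 0.882 and 0.0219 CPM in rods, against 986 and 1385 CPM in cones (adjusted p = 1.4e-05), and Ccdc136 had 9.47 and 9.05 CPM in rods, against 1752 and 1844 CPM in cones (adjusted p = 7.4e-07). Of 9 genes listed as known from cones, 4 were lower in rods and none higher. Scg3, a secretory granule protein, was one of them, with 65.3 and 54.2 CPM in rods, against 873 and 1059 CPM in cones. Gulo, the enzyme for the last step of ascorbate synthesis in mouse, was another, with 30.1 and 16.0 CPM in rods, against 421 and 497 CPM in cones (adjusted p = 0.0053). Of 7 genes listed as known from rods, 3 were higher in rods (1 with any of the 4 libraries left out) and 1 lower. Reep6, an endoplasmic reticulum protein, had 365 and 290.1 CPM in rods, against 39.8 and 41.1 CPM in cones (adjusted p = 2.1e-05). Slc6a6, the taurine transporter, was the lower one, with 70.4 and 73.5 CPM in rods, against 1091 and 887 CPM in cones and a log2 difference of -3.77 ± 0.18 (adjusted p = 4.3e-09).

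Within phototransduction itself, 9 of 15 rod genes were higher in rods (7 to 8) and 11 of 12 cone genes lower. The cone count stayed at 11 with any of the 4 libraries left out. The member that went against its list was Guca1b, a guanylate cyclase activator, with 7.80 and 10.4 CPM in rods, against 169.9 and 240.2 CPM in cones. Gngt2, the gamma subunit of cone transducin, was well above 0 in rods, with 319 and 265 CPM in rods, against 1364 and 1374 CPM in cones. The rod difference of Gngt2 was -2.24 ± 0.41 at P7 and -7.57 ± 0.41 at P13.

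Genes that equip the outer segment and its cilium were called higher in rods more often than all genes tested, where the share was 3.30%. Most of the list was not called, which also held for all genes tested. Of 40 measured, 7 were higher in rods and 2 lower, and their median log2 difference was 0.18, against -0.16 for all genes. Rom1, a disc rim protein, had 5489 and 5187 CPM in rods, against 894 and 858 CPM in cones (2.61 ± 0.20, adjusted p = 3.7e-07). Bbs7 and Bbs9 are parts of the Bardet-Biedl complex, which carries cargo out of cilia. Bbs7 had 196 and 189 CPM in rods, against 45.2 and 51.0 CPM in cones (2.00 ± 0.21, adjusted p = 9.5e-06), and Bbs9 had 449 and 449.9 CPM in rods, against 132 and 171 CPM in cones (1.58 ± 0.25, adjusted p = 5.3e-04). Ahi1, a protein of the base of the cilium, was lower in rods, with 166 and 154 CPM in rods, against 366 and 348 CPM in cones (-1.16 ± 0.17, adjusted p = 2.1e-04). With any of the 4 libraries left out the counts were 6 and 2.

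Many receptor subunits for inhibitory transmitters were lower in rods. Of 21 GABA and glycine receptor subunits, 9 were lower in rods (4 to 8) and none higher, with a median difference of -4.82. Without cone replicate 2 the count was 4 as well. Gabrr3, a subunit of the slow GABA receptors of the retina, had no reads in rods, against 16.2 and 13.8 CPM in cones (at least 476-fold lower, adjusted p = 2.4e-07). It had 76.9 CPM in bipolar cells. Glutamate receptors showed 7 of 24 lower in rods and none higher. Leaving out cone replicate 1, limma called 0 of 24 (6 lower and 2 higher at an unadjusted p below 0.05 and the same fold), and leaving out each of the others gave 2 to 5 lower.

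Of 38 potassium, HCN and sodium channel genes, 11 were lower in rods (5 to 10) and 1 higher. Kcnma1, the large-conductance calcium-activated potassium channel, had 4.75 and 1.12 CPM in rods, against 358 and 198 CPM in cones (-6.84 ± 0.68, adjusted p = 5.1e-06). Scn3b, an accessory sodium channel subunit, had no reads in rods, against 5.03 and 5.32 CPM in cones (at least 165-fold lower, adjusted p = 8.8e-05). The exception was Kcnj14, an inward rectifier, at a low level of 3.95 and 3.64 CPM in rods, against 0.298 and 0.0541 CPM in cones. The call of Scn3b ended under a filter of 8 CPM, which removes it. The call of Kcnj14 ended in a fit to the 4 libraries alone. The list of light and dopamine modulators, which is not limited to receptors, had 8 of 20 lower in rods and none higher. Fewer were lower with any of the 4 libraries left out. Mtnr1a, the melatonin receptor, had no reads in rods, against 9.63 and 15.7 CPM in cones (at least 403-fold lower, adjusted p = 4.7e-05). Prkacb, a catalytic subunit of protein kinase A, had 85.8 and 78.5 CPM in rods, against 224 and 198 CPM in cones (-1.36 ± 0.19, adjusted p = 1.8e-04).

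Genes of the synaptic terminal that were called were mostly lower in rods. The share called higher was at most 2.63% in each list of this paragraph, not far from the 3.30% of all genes. Of 19 ribbon and active zone genes, 2 were lower in rods (1 to 3) and none higher. The share lower, 10.5%, was near the 9.52% of all genes. Of 38 genes of vesicle release and endocytosis, 9 were lower (4 to 8) and 1 higher. Sv2a, a vesicle glycoprotein, had 63.9 and 98.7 CPM in rods, against 339 and 247 CPM in cones (-1.86 ± 0.31, adjusted p = 7.5e-04), and Dnm1, which cuts vesicles off the membrane, had 59.8 and 76.7 CPM in rods, against 190.2 and 180.3 CPM in cones (-1.45 ± 0.24, adjusted p = 5.8e-04). The complexins, which clamp vesicle fusion, were split. Cplx1 had 3 reads in rods, against 24.95 and 36.6 CPM in cones, a ratio of 980.1 to 1 (95% counting interval 335 to 4753) for cones over rods, and Cplx4, the form of ribbon synapses, had 257 and 184 CPM in rods, against 124 and 86.6 CPM in cones (1.07 ± 0.28, adjusted p = 0.018). Cplx4 lost its call when rod replicate 1 or cone replicate 2 was left out (log2 difference 0.81, adjusted p = 0.17 without cone replicate 2). Of 27 calcium channel and cleft genes, 6 were lower in rods (4 to 6) and none higher. Cacna2d2, an accessory calcium channel subunit, had 5.09 and 10.02 CPM in rods, against 84.4 and 91.2 CPM in cones (-3.62 ± 0.72, adjusted p = 0.0028). Among 21 neuronal calcium-binding genes, 3 were lower (2 to 5), and Cabp7 had no reads in rods, against 4.21 and 4.88 CPM in cones (adjusted p = 0.001). The call of Cabp7 ended under a filter of 8 CPM, which removes it.

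Surface and guidance genes differed at single members of many families. Leucine-rich repeat surface proteins had 8 of 31 lower (3 to 8) and none higher. Lrfn2, which binds postsynaptic scaffolds, had no reads in rods, against 24.6 and 17.2 CPM in cones (at least 665-fold lower, adjusted p = 4.3e-06). Lrtm1 had 1 read in rods, against 79.7 and 73.8 CPM in cones, a ratio of 7328 to 1 (95% counting interval 1315 to 289440.0) for cones over rods. Immunoglobulin superfamily adhesion genes had 9 of 42 lower (3 to 8) and 4 higher (2 to 4, lowest without cone replicate 2). Nrcam had 0.241 and 20.52 CPM in rods, against 608 and 691 CPM in cones (adjusted p = 0.001), whereas Cadm1, a homophilic synaptic adhesion protein, had 1669 and 1949 CPM in rods, against 364 and 279.6 CPM in cones (2.50 ± 0.21, adjusted p = 8.0e-07) and Nfasc, a protein of axon initial segments, had 51.7 and 75.4 CPM in rods, against 8.33 and 2.43 CPM in cones (3.79 ± 0.44, adjusted p = 2.3e-05). Cadherins had 7 of 34 lower (3 to 5) and none higher, and Cdh18 had no reads in rods, against 5.72 and 4.16 CPM in cones. Semaphorins, plexins and neuropilins had 5 of 29 lower (2 to 5) and 1 higher, and Slit, Robo and netrin genes 3 of 14 lower (1 to 2) and 1 higher. The Slit, Robo and netrin gene that was higher, Unc5c, is a netrin receptor and had 44.4 and 15.5 CPM in rods, against 3.47 and 0.631 CPM in cones (4.14 ± 0.74, adjusted p = 0.0012), and Robo2, a Slit receptor, had 1.52 and 0 CPM in rods, against 52.7 and 36.3 CPM in cones (adjusted p = 0.0011). Of 34 Wnt pathway and planar polarity genes, 5 were lower (2 to 4) and 2 higher. Prickle2, a planar polarity protein, had 0.0201 and 0.241 CPM in rods, against 99.2 and 102 CPM in cones (adjusted p = 5.1e-05). The calls of Nrcam, Nfasc, Unc5c and Robo2 ended in a fit to the 4 libraries alone. The call of Cdh18 ended under a filter of 8 CPM, which removes it. With any of the 4 libraries left out limma called 0 Wnt genes higher (3 at an unadjusted p below 0.05 and the same fold without cone replicate 1). Eph receptors and ephrins gave 2 of 18 lower (1 to 3), and neurexins, neuroligins, teneurins, latrophilins and FLRTs 3 of 27 lower, which is 11.1% in each case and near the 9.52% of all genes; none of either list was higher. Without cone replicate 1 limma called 0 of the neurexin group (4 lower at an unadjusted p below 0.05 and the same fold).

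**Figure D4:**
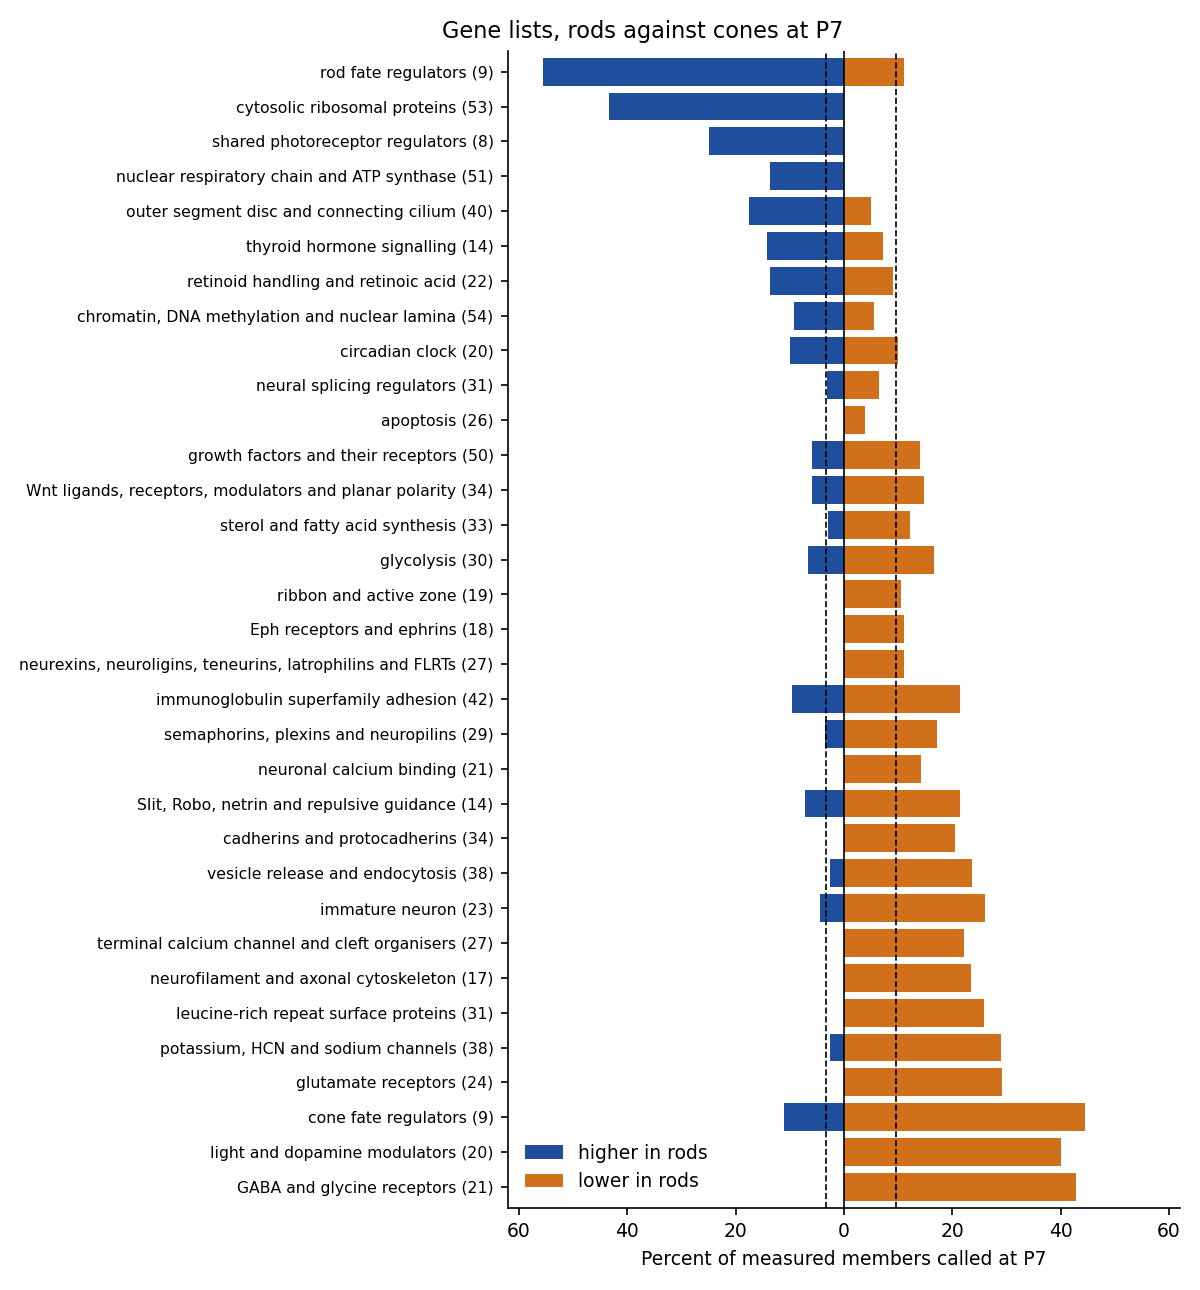
Percent of measured members of each gene list called higher (left of zero) and lower (right of zero) in rods at P7, with the number measured after each name. Dashed lines give 3.30% and 9.52%, the shares over all 13405 genes tested.

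Genes of immature neurons and of progenitors that were called were mostly lower in rods. Maturity itself was not measured. Among 23 genes of immature neurons 6 were lower in rods (3 to 9) and 1 higher, and among 18 progenitor and Notch genes 7 were lower (2 to 4) and none higher. Tubb3, neuronal beta-tubulin, had 4.79 and 6.12 CPM in rods, against 51.1 and 38.3 CPM in cones (-3.03 ± 0.59, adjusted p = 0.0025). Six6, an eye-field homeobox factor, had 48.7 and 54.8 CPM in rods, against 293 and 454 CPM in cones (-2.82 ± 0.27, adjusted p = 3.5e-06), and 56.4 CPM in bipolar cells. Insm1, a zinc finger factor of new neurons, was the one higher, with 1668 and 1298 CPM in rods, against 160.4 and 266 CPM in cones (adjusted p = 0.0067). Insm1 lost its call when rod replicate 1 or cone replicate 1 was left out (log2 difference 2.47, adjusted p = 0.079 without cone replicate 1). The list of neurofilament and axonal cytoskeleton genes gave 4 of 17 lower and none higher, and fewer were lower without cone replicate 1. Sptbn1 had 142 and 171 CPM in rods, against 455 and 503 CPM in cones (-1.62 ± 0.17, adjusted p = 7.6e-06), and Ank3 had 56.6 and 54.8 CPM in rods, against 178 and 151 CPM in cones (-1.56 ± 0.31, adjusted p = 0.0032). Proliferation genes were called in 3 of 18 cases, 2 higher and 1 lower. Leaving out cone replicate 1, limma called 0 (2 higher and 1 lower at an unadjusted p below 0.05 and the same fold).

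Genes of energy metabolism differed in both directions. Of 30 glycolysis genes, 2 were higher in rods (1 to 3, lowest without cone replicate 2 or rod replicate 2) and 5 lower (3 to 5), and their median was -0.25. Ldha, the muscle-type lactate dehydrogenase subunit, had 2859 and 2998 CPM in rods, against 923 and 1217 CPM in cones (1.47 ± 0.21, adjusted p = 2.3e-04). Hexokinase 2, encoded by Hk2 and the form known from mature photoreceptors, had 7.84 and 4.03 CPM in rods, against 225 and 197 CPM in cones (-5.22 ± 0.34, adjusted p = 7.1e-08). Eno2, neuronal enolase, had 148 and 148 CPM in rods, against 459 and 487 CPM in cones (-1.68 ± 0.20, adjusted p = 3.5e-05). Of 51 nuclear genes of the respiratory chain, 7 were higher (2 to 7) and none lower, with a median of 0.60. Called or not, 45 of them had a positive difference and 6 a negative one. Of 10 measured genes of the mitochondrial genome itself, 4 were lower (1 to 3) and none higher, with a median of -1.11. There 9 differences were negative and 1 positive. Over all genes tested 5644 were positive and 7756 negative. Of 33 sterol and fatty acid synthesis genes, 4 were lower (2 to 5, lowest without cone replicate 2) and 1 higher. Elovl5 had 1 read in rods, against 241 and 285 CPM in cones, a ratio of 25094 to 1 (95% counting interval 4504 to 991164) for cones over rods, and Elovl6 had 1.34 and 5.11 CPM in rods, against 341 and 430.0 CPM in cones (-7.19 ± 0.47, adjusted p = 6.6e-08). The higher one was Elovl4, the elongase of very long chain fatty acids in photoreceptors, with 1121 and 899 CPM in rods, against 440.1 and 515 CPM in cones (1.08 ± 0.18, adjusted p = 8.2e-04). Elovl4 lost its call when rod replicate 1 or cone replicate 1 was left out (log2 difference 0.96, adjusted p = 0.017 without cone replicate 1). The call of Ldha ended in a fit to the 4 libraries alone.

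Cytosolic ribosomal proteins were higher in rods in 23 of 53 cases (12 to 18) and lower in none, with a median log2 difference of 0.92. Rps28 had 807 and 682 CPM in rods, against 235 and 239.7 CPM in cones (1.64 ± 0.32, adjusted p = 0.0027), and Rpl10a had 449.9 and 474 CPM in rods, against 164 and 171 CPM in cones (1.46 ± 0.25, adjusted p = 9.7e-04). At P13 24 were higher, against 7.10% of all genes at that age, and at P30 4 were lower, against 10% of all genes. Ribosomal proteins have many processed pseudogenes, so their reads may be shared with copies.

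The nuclei of mouse rods go on to place heterochromatin at their centre, and genes for chromatin and the nuclear lamina were called in both directions. Of 54 measured, 5 were higher in rods (3 to 5), which is 9.26% against 3.30% of all genes. Another 3 were lower (1 to 3, lowest without cone replicate 2 or rod replicate 1), which is 5.56% against 9.52%. The median was -0.10 for the list and -0.16 for all genes. Hist1h1c, a linker histone, had 373 and 321 CPM in rods, against 39.0 and 52.4 CPM in cones (2.94 ± 0.27, adjusted p = 2.5e-06). Hmgn2, a nucleosome-binding protein, had 592 and 605 CPM in rods, against 106 and 136 CPM in cones (2.31 ± 0.26, adjusted p = 1.4e-05), and Suv39h2, a histone methyltransferase of heterochromatin, had 66.3 and 60.9 CPM in rods, against 11.3 and 10.02 CPM in cones (2.58 ± 0.47, adjusted p = 0.0016). Cbx5, which encodes heterochromatin protein 1 alpha, was lower, with 34.6 and 42.6 CPM in rods, against 125 and 155 CPM in cones (-1.86 ± 0.20, adjusted p = 9.1e-06). Lmnb1, lamin B1, had 67.5 and 60.4 CPM in rods, against 19.5 and 17.9 CPM in cones (adjusted p = 0.015). Lmnb1 lost its call when rod replicate 1, cone replicate 1 or cone replicate 2 was left out (log2 difference 1.71, adjusted p = 0.086 without cone replicate 2). Of 31 neural splicing regulators, 1 was higher and 2 lower (0 to 4; limma called 0 without cone replicate 1, and 3 were lower at an unadjusted p below 0.05 and the same fold), the higher one being Mbnl1 with 303 and 245 CPM in rods, against 131 and 112 CPM in cones (1.17 ± 0.22, adjusted p = 0.0018).

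Hormone, vitamin A and growth factor genes supplied single differences. Ncoa2, a coactivator of nuclear receptors, had 229 and 223 CPM in rods, against 89.9 and 97.4 CPM in cones (1.27 ± 0.21, adjusted p = 7.3e-04). Of 14 thyroid hormone signalling genes, it was 1 of 2 higher in rods (1 to 2), and Thrb was the 1 lower. Of 22 vitamin A genes 3 were higher (2 to 3) and 2 lower (1 to 2). Dhrs3, a retinal reductase, had 85.9 and 77.7 CPM in rods, against 7.42 and 2.83 CPM in cones (4.15 ± 0.52, adjusted p = 5.7e-05). Rdh10, a retinol dehydrogenase, had 138 and 151 CPM in rods, against 40.5 and 32.6 CPM in cones (1.99 ± 0.32, adjusted p = 5.1e-04). Of 50 growth factor and receptor genes, 3 were higher (2 to 5, lowest without cone replicate 2) and 7 lower (5 to 9). Lifr, a receptor for survival cytokines, had 390.0 and 344 CPM in rods, against 85.5 and 81.3 CPM in cones (2.13 ± 0.20, adjusted p = 2.2e-06). Ngfr, the p75 neurotrophin receptor, had no reads in rods, against 23.9 and 10.3 CPM in cones (at least 544-fold lower, adjusted p = 2.3e-05). Of 20 clock genes 2 were higher (2 to 3) and 2 lower (1 to 2), and Bhlhe41, a repressor of the clock, had 81.9 and 59.4 CPM in rods, against 21.7 and 14.7 CPM in cones (1.96 ± 0.33, adjusted p = 8.6e-04). Immediate early genes, which respond to activity and to handling, gave 5 of 33 lower (3 with any of the 4 libraries left out) and 2 higher (1 to 2). Egr1 had 28.4 and 25.7 CPM in rods, against 775 and 1876 CPM in cones, a difference of -5.48 ± 0.90 (adjusted p = 6.5e-04), while Jun had 190.3 and 183 CPM in rods, against 52.5 and 51.5 CPM in cones, a difference of 1.84 ± 0.34 (adjusted p = 0.0016).

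Many genes lower in rods were also present in bipolar cells. Of the 1276 genes lower in rods, 513 had a higher mean in bipolar cells than in cones, and 254 had a bipolar mean under an eighth of the cone mean. Of the 442 genes higher in rods, 33 had a higher mean in bipolar cells and 113 a bipolar mean under an eighth of the rod mean. These counts, and those by cone replicate below, were not set against all genes tested. They describe the called genes and do not set them apart from other genes. Among 28 bipolar genes 9 were lower in rods (6 to 10) and 2 higher (1 to 2, lowest without cone replicate 2). For 30 of the 1276 genes the level in cone replicate 1 was under 5% of the bipolar mean. In cone replicate 1, 101 of the 1276 were over 3 times the level of cone replicate 2, and 12 were the other way round. Cabp5, a calcium-binding protein known from bipolar cells, was not among them, with no reads in rods, against 205 and 217 CPM in cones, and Lrtm1 and Rgs7 likewise had both cone libraries high. Grm6, the receptor that defines ON-bipolar cells, had no reads in rods, against 31.5 and 1.84 CPM in cones, and 1089 CPM in bipolar cells.

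The P7 pattern was followed to P13 and P30. The rod and cone libraries differ between the ages, but all ages share 1 fit and its estimate of the spread per gene. Genes of small spread are therefore favoured at each age, and the overlaps below are not those of independent tests. Of the 442 genes higher in rods at P7, 318 were also called higher at P13, which is 71.9% of them and 33.4% of the 952 called at P13 (7.10% of all genes), and 195 at P30, which is 44.1% of them and 14.6% of 1338 (9.98%). Of the 1276 lower genes, 742 were also lower at P13 (58.2%, and 39.2% of the 1891 called there, 14.1% of all genes) and 480 at P30 (37.6%, and 35.7% of 1346, 10%). None of the higher genes was called lower at P13 and 15 were at P30, and 10 and 61 of the lower genes were called higher. The rod-cone difference itself differed between P7 and P13 for 203 genes (1.51%) and between P7 and P30 for 1422 (10.6%). The second count depended on scaling: with plain read totals 232 differences were more positive and 2105 more negative at P7, against 613 (4.57% of all genes) and 809 (6.04%) with the deposited scaling, and with the mitochondrial genome left out of the totals 1320 were more positive and 659 more negative. Both counts shrank in a fit to the 8 libraries compared, to 3 and 652, and without cone replicate 1, to 100 and 616; the first was 76 without cone replicate 2. At P30 the mitochondrial genome made up 9.88% and 6.39% of reads in rods, against 38.7% and 28.6% in cones.

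Some genes called lower in rods had a more negative difference at P7 than later. Of the lower genes, 37 had a rod-cone difference more negative at P7 than at both later ages. Of the higher genes, 1 had a difference more positive at P7 than at both. These counts go by sign and include genes whose difference was reversed later. They were not set against all genes tested. The genes were first called with the same P7 libraries, which favours a larger difference at P7. Gpsm2 was at -1.70 at P7, 4.29 at P13 and 6.57 at P30, and the 1 higher gene, Arhgap31, was at 1.16, -0.98 and -1.07. Slc6a6 was 1 of these 37. In rods it had 70.4 and 73.5 CPM at P7, 975.5 and 688 CPM at P13 and 1141 and 1071 CPM at P30, and in cones 1091 and 887 CPM, 1769 and 1551 CPM and 1725 and 1759 CPM. The difference at P7 minus that at P13 was -2.76 ± 0.26, adjusted p = 5.2e-05. Mfge8, a bridge between dying cells and phagocytes, had 3.41 and 5.28 CPM in rods, against 565 and 626 CPM in cones at P7, and its difference was -7.13 ± 0.37 at P7, -4.20 ± 0.37 at P13 and -1.57 ± 0.37 at P30. Smug1, a uracil DNA glycosylase, had 35.2 and 32.0 CPM in rods, against 367 and 327 CPM in cones, with -3.37 ± 0.15 at P7, -2.46 ± 0.15 at P13 and -0.23 ± 0.15 at P30. The P7 minus P30 value was -3.14 ± 0.21, adjusted p = 1.5e-06. Sgk1, a serum- and glucocorticoid-induced kinase, had no reads in rods, against 3.60 and 2.00 CPM in cones at P7. The difference in Hk2 was -5.22 ± 0.34 at P7, -2.93 ± 0.34 at P13 and -0.61 ± 0.34 at P30, and P7 minus P13 was -2.29 ± 0.48, adjusted p = 0.026. Adrb1 kept its direction, with 0.281 and 6.16 CPM in rods against 401 and 395 CPM in cones at P13.

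Some crossed over. Guca1b, lower in rods at P7 (-4.48 ± 0.49), was higher at P13 (1.42 ± 0.49) and P30 (2.54 ± 0.49), and the P7 minus P13 value was -5.90 ± 0.69, adjusted p = 3.4e-04. Pfkfb3, which makes an activator of glycolysis, had no reads in rods at P7, against 4.70 and 0.901 CPM in cones, and at P13 had 2.78 and 8.25 CPM in rods, against 0 and 0.255 CPM in cones (adjusted p of the change = 4.2e-04). Gpsm2, a regulator of spindle orientation, had 0.401 and 2.30 CPM in rods, against 2.76 and 3.57 CPM in cones at P7 and 565 and 616 CPM in rods, against 5.93 and 6.48 CPM in cones at P30 (P7 minus P30 -8.27 ± 0.73, adjusted p = 6.8e-06). Gpsm2 lost its call when rod replicate 1, cone replicate 1 or cone replicate 2 was left out (log2 difference -0.45, adjusted p = 0.43 without rod replicate 1). The call of Pfkfb3 ended with a pseudocount of 2. Other genes differed less at P7 than later. The difference in Gngt2 at P7 minus that at P13 was 5.34 ± 0.59, adjusted p = 1.8e-04. Calu, a calcium-binding protein of the secretory pathway, was -2.66 ± 0.21 at P7 and -6.08 ± 0.21 at P30, and the change was 3.42 ± 0.30, adjusted p = 6.8e-06. Amigo2, an adhesion protein, had 4.57 and 4.21 CPM in rods, against 15.9 and 16.5 CPM in cones at P7, and no reads in rods, against 5.69 and 7.74 CPM in cones at P30. Krt222, a keratin-like protein, had 3.81 and 3.44 CPM in rods, against 32.0 and 34.9 CPM in cones at P7, and no reads in rods, against 53.5 and 53.5 CPM in cones at P13. The noncoding A230057D06Rik had 0.762 and 1.34 CPM in rods, against 18.2 and 16.9 CPM in cones at P7, and no reads in rods, against 32.6 and 41.7 CPM in cones at P13. Gm4792 had 2.35 and 1.78 CPM in rods, against 305 and 215 CPM in cones at P7, and 0 and 0.0252 CPM in rods, against 792 and 679 CPM in cones at P13. Prim1, a DNA primase subunit, had 17.6 and 4.32 CPM in rods, against 31.5 and 42.6 CPM in cones at P7, and 0.0351 and 0.0252 CPM in rods, against 29.4 and 28.7 CPM in cones at P13. In each of these 5 the log2 difference was smaller in size at P7 than at the later age given for it. The limma adjusted p of the change was 5.5e-06, 5.2e-05, 1.2e-05, 1.2e-04 and 1.6e-04. Rods at that later age had at most 1 read in a library, so the sizes of these changes depend on the prior. In CPM the groups of Amigo2 lay farther apart at P7 than at P30. Prim1 went the other way against P30, with a P7 minus P30 value of -2.86 ± 0.82, adjusted p = 0.035. Amigo2 lost its call when rod replicate 2, cone replicate 1 or cone replicate 2 was left out (log2 difference -1.86, adjusted p = 0.07 without cone replicate 2). Prim1 lost its call when rod replicate 2, cone replicate 1 or cone replicate 2 was left out (log2 difference -1.06, adjusted p = 0.24 without rod replicate 2). The call of A230057D06Rik ended in a fit to the rod and cone libraries alone.

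**Figure D5:**
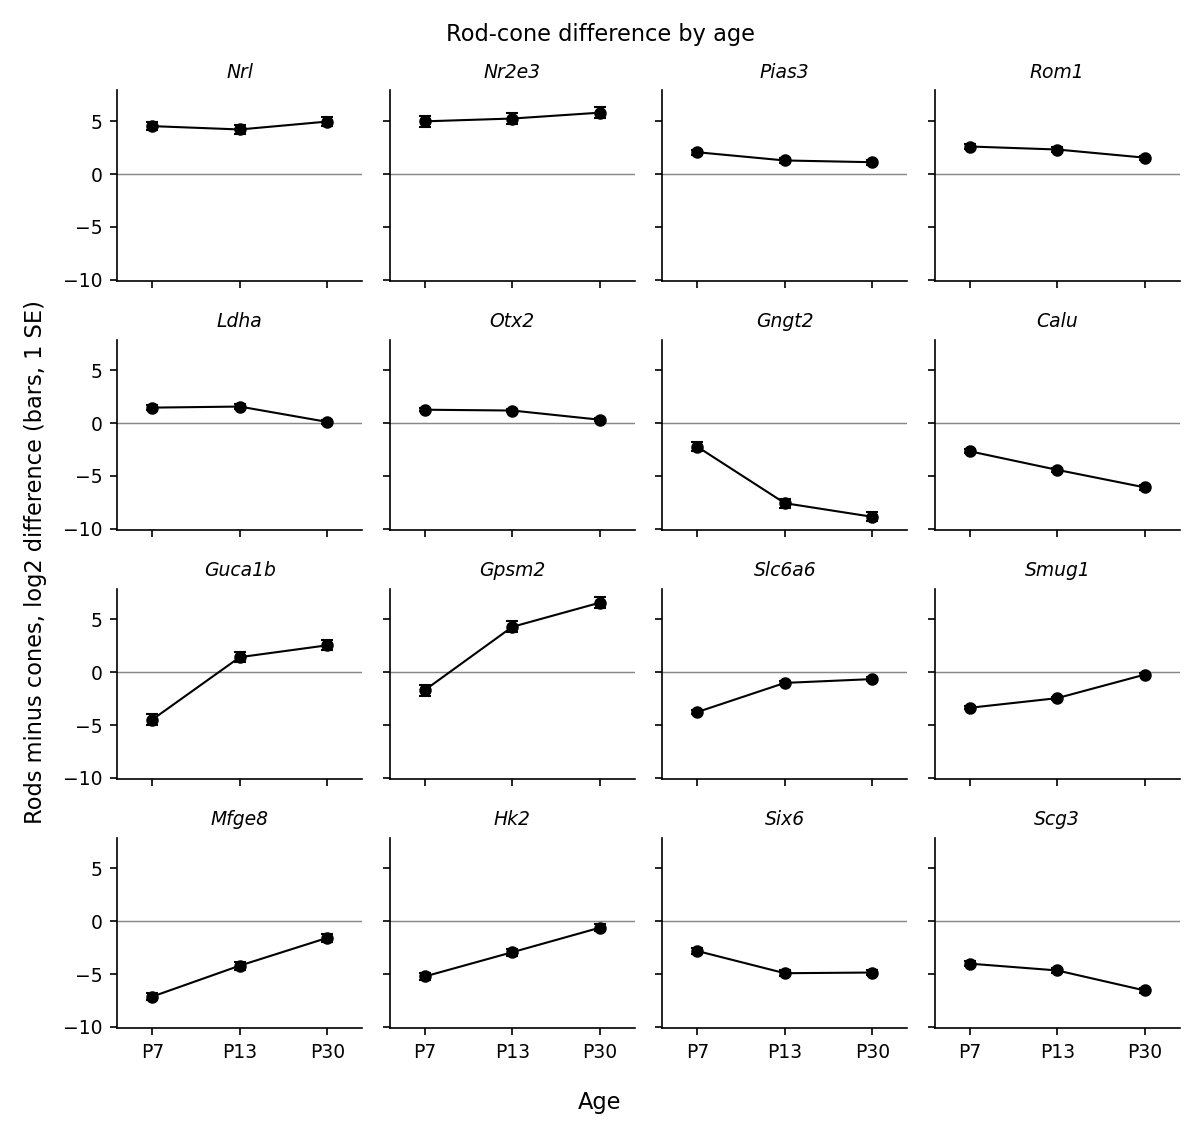
Rod minus cone log2 difference at P7, P13 and P30 (limma estimate, bars give 1 SE) for genes described in the text. Nrl, Nr2e3 and Pias3 stay above 0 at each age, Guca1b and Gpsm2 go from below 0 at P7 to above 0 at P30, and Slc6a6 and Smug1 are farthest from 0 at P7. Values of genes with no reads in rods depend on the prior added to the counts.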

How the data were processed

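The authors deposited log2 CPM, a log2 of read counts scaled for depth, for 13812 genes in 22 sorted-cell libraries. Per the labels' protocols, cells were collected in PicoPure buffer, and RNA was amplified linearly with the RiboAmp HS PLUS kit before TruSeq library preparation. Amplification from few cells can raise the spread of low genes and leave them without reads. Per the submitters' processing notes, STAR, edgeR and the GRCm38 (mm10) build were named; no version is given in the sources used here. Undoing the log gave whole reads for 100% of values, to within 0.01 read, once a prior of 0.25 reads was taken off. Depth was 40.8 to 50.8 M reads in the 4 libraries at P7, so that 1 read is worth about 0.0201 CPM in rod replicate 1. CPM printed here leave out the prior. Intervals and floors (3 reads) cover counting error only. CPM are not divided by transcript length, so levels of different genes are not compared.

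Groups and replicate numbers came from the sample titles. All 22 libraries in 11 groups entered 1 limma 3.58.1 fit (R 4.3.3; empirical Bayes with an intensity trend, 11 residual and 4.27 prior degrees of freedom) to the deposited log2 values. Genes entered it if both libraries of any group had a log2 CPM of 0 or more, and were called with a Benjamini-Hochberg adjusted p below 0.05 over 13405 genes and a log2 fold change, rods minus cones, of at least 1. Fold changes of genes with no reads in a group depend on the prior. With 2 libraries a group an exact permutation test cannot go below p = 0.33. Genes named were taken from those fixed by a rule: the called genes with the largest rises and falls (15 each, no overlap, mean log2 CPM of at least 3 in the higher group), up to 8 called members a list by adjusted p, every measured regulator of the 3 fate lists, and the 10 called genes of lowest adjusted p for each difference between ages. Others were chosen after their values were seen. The members, lists and tests were chosen with earlier results of these data known. Gene positions are from GENCODE M21, and promoter windows from RefSeq; 27 genes without a symbol were left out of the tests. Some called genes are not reported here. Alternatives covered the libraries fitted, filters, pseudocounts, scaling, weights, the spread model, replicate pairing, each replicate left out and the thresholds.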

Additional observations from a re-analysis of the deposited data

Results flagged for a closer look

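The rod-cone difference of some genes described above differed between P7 and a later age (limma, interaction of cell type and age, adjusted p below 0.05 and a log2 size of at least 1). Each value is the rod-cone log2 difference at P7 minus that at the later age, so a negative value means that rods stood lower relative to cones at P7 than later. Against P13 the value was -5.98 for Gpsm2, -5.90 for Guca1b, -5.44 for Egr1, -2.93 for Mfge8, -2.76 for Slc6a6 and -2.29 for Hk2, and it was positive at 11.41 for Rxrg, 8.58 for Gm4792, 7.54 for Prim1, 5.34 for Gngt2, 2.15 for Arhgap31, 2.10 for Six6 and 1.76 for Calu. The cone genes Gngt2 and Rxrg were thus nearer to cone levels in rods at P7, and the taurine transporter Slc6a6 and hexokinase 2 farther from them. Rods at P13 had 1 read in all for Rxrg and for Gm4792 and 1 in each library for Prim1, so that these 3 sizes depend on the prior. The genes that follow had no reads in both libraries of at least 1 group, so that their sizes depend on the prior: -14.93 for Pfkfb3, -7.76 for Sgk1 and -7.40 for Adrb1, and 9.64 for Krt222 and 8.20 for A230057D06Rik.

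Against P30 the value was -9.66 for Cplx1, -9.45 for Mef2c, -8.40 for Gnat2, -8.27 for Gpsm2, -7.22 for Elovl5, -7.17 for Robo2, -7.03 for Guca1b, -5.97 for Lrtm1, -5.57 for Krt18, -5.55 for Mfge8, -4.64 for Egr1, -4.61 for Hk2, -3.14 for Smug1, -3.12 for Slc6a6, -2.86 for Prim1, -1.43 for Cbx5, -1.41 for Dnm1, -1.27 for Aipl1 and -1.07 for Ahi1. These are lower in rods at P7 by more than at P30, or lower at P7 and higher at P30. Cplx1, Gnat2, Elovl5 and Lrtm1 had 1 to 3 reads in rods at P7, so that their sizes depend on the prior as well. It was positive at 6.62 for Gngt2, 3.76 for Unc5c, 3.42 for Calu, 3.41 for Olfm1, 3.27 for Jun, 2.60 for Lrp4, 2.54 for Scg3, 2.24 for Arhgap31, 2.04 for Six6, 1.53 for Rps28, 1.43 for Cadm1, 1.41 for Pla2g7, 1.35 for Ldha and 1.06 for Rom1. Cadm1, Ldha and Rom1 were among those more in excess in rods at P7 than at P30, while Gngt2, Calu and Scg3 were lower in rods at both ages and less so at P7. With a group at no reads, the values were -11.74 for Mtnr1a, -11.02 for Sgk1, -9.52 for Pfkfb3, -8.63 for Gabrr3, -8.57 for Sall3, -6.97 for Fam19a3, -6.78 for Adrb1 and -6.74 for Cabp5, and 7.95 for Amigo2 and 7.92 for A230057D06Rik. The comparison with P30 moved with the scaling, and the comparison with P13 with the libraries in the fit.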

How the results depend on the processing

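The main counts of 442 higher and 1276 lower genes at P7, and of 203 and 1422 genes whose rod-cone difference at P7 differed from that at P13 and at P30, were recomputed under 21 alternatives, 19 of them planned. Voom weights on the recovered reads, chosen after seeing the data, gave 679 higher genes, and a minimum log2 fold change of 2 gave 127. A fit to rod and cone libraries alone gave 687 lower genes. The P7 to P13 count was 3 with only the compared libraries, 27 with rods and cones alone and 73 with array quality weights. The P7 to P30 count was 652, 479 and 836 in those 3 fits, 2337 with plain read totals and 856 at a minimum log2 fold change of 2. Leaving out each replicate gave 255 to 405 higher genes, 668 to 1218 lower genes, 76 to 295 for P13 and 616 to 1360 for P30. In all other alternatives each of the 4 counts stayed within 1.5 times its main value. Plain totals shifted the median of all genes to -0.23, against -0.16 as deposited. The 2 named genes that changed sign were not called: Rax, at 0.11 without rod replicate 1 and -0.38 without rod replicate 2 (-0.13 with all), and Ddx3y, at 0.94 without rod replicate 2 and -12.77 without rod replicate 1 (-5.92 with all). Of 114 named genes that were called, 84 kept the call in every alternative but the fold of 2. The deviations of same-numbered rod and cone libraries had a correlation of -0.1274 across genes. Over pairs of the groups it ran from -0.1424 to 0.1926. With 2 libraries a group this cannot decide whether they were paired, and the labels do not say. The replicate block gave 443 higher and 1258 lower genes, and 198 and 1444 for the ages. The crossed replicate block, chosen after seeing the data, gave 438 and 1264. The edgeR and DESeq2 tests listed as alternatives were not run; the deposited unit is log2 CPM, and voom weights on the recovered reads were used in their place. Depth limits genes at the floor: at 40.8 to 50.8 M reads, no reads is a limit on detection and not absence.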

Other observations

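Several genes with large differences at P7 lie outside the lists and the naming rule, and were chosen after their values were seen. Olfm1, a secreted olfactomedin-domain protein of neurons, had 71.8 and 69.8 CPM in rods, against 1839 and 2423 CPM in cones, a log2 difference of -4.90 ± 0.33 (limma adjusted p = 8.2e-08). Mt1, a metallothionein that binds zinc and copper, had 0.0401 and 0.153 CPM in rods, against 657 and 646 CPM in cones (adjusted p = 2.5e-06), and Krt18, a keratin, had 3.35 and 11.6 CPM in rods, against 480.2 and 686 CPM in cones (adjusted p = 1.2e-05). Both cone libraries were high for each of these genes and the groups did not overlap. Aipl1, a chaperone of photoreceptor phosphodiesterase, had 377 and 394 CPM in rods, against 1417 and 1343 CPM in cones (-1.84 ± 0.28, adjusted p = 3.0e-04), and Cpe, a peptidase that matures neuropeptides and hormones, had 618 and 530.4 CPM in rods, against 1715 and 2047 CPM in cones (-1.71 ± 0.23, adjusted p = 8.5e-05). Among genes higher in rods, Htra1, a secreted serine protease, had 683 and 805 CPM in rods, against 62.02 and 46.9 CPM in cones (3.78 ± 0.46, adjusted p = 3.8e-05), and Pla2g7, which breaks down platelet-activating factor, had 395 and 424 CPM in rods, against 27.3 and 25.7 CPM in cones (3.95 ± 0.23, adjusted p = 2.6e-08). Gulp1, an adaptor of phagocytosis, had 339 and 201 CPM in rods, against 16.7 and 9.61 CPM in cones (4.37 ± 0.50, adjusted p = 2.3e-05). Arhgap31, which switches off small GTPases, had 506 and 653 CPM in rods, against 253 and 259.8 CPM in cones (1.16 ± 0.19, adjusted p = 5.7e-04). It was the 1 gene called higher in rods whose difference was more positive at P7 than at both later ages. Its difference was reversed later, at -0.98 at P13 and -1.07 at P30. Chrnb4, a nicotinic acetylcholine receptor subunit, had 50.7 and 99.3 CPM in rods, against 493 and 709.5 CPM in cones; the groups did not overlap, but the difference did not pass the test (adjusted p = 0.32).

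Transcripts of the sex chromosomes differed between replicates. Ddx3y, on the Y chromosome, had 97.4 and 0 CPM in rods, against 66.0 and 39.2 CPM in cones. Xist, which coats the inactive X chromosome, had 27.3 and 174 CPM in rods, against 138 and 273 CPM in cones. The rod libraries were thus unequal in both genes. Neither passed the test (adjusted p = 0.14 and 0.81).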
